A study of Drosophila melanogaster with 2 samples.

Results

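Deep intronic summits of Dati binding were the peak summits that lay inside an annotated Drosophila melanogaster gene, in no annotated exon, and more than 2000 bp from the nearest annotated transcript start site. They numbered 386 of the 1892 optimal peaks on the 6 chromosome arms examined, or 20.4% with an exact 95% binomial interval of 18.6% to 22.3%. The optimal peaks were the authors' thresholded set for both replicates together. The choice used position alone, not the height of a peak. Each of the 386 summits lay in an intron of at least 1 annotated transcript.

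The peaks came from chromatin immunoprecipitation and sequencing (ChIP-seq) of whole embryos 8 to 24 h old, in which an anti-GFP antibody recovered the product of a transgene that fuses dati to eGFP. The gene dati encodes a zinc finger protein. The embryos formed 1 group of 2 biological replicates, and both replicates were set against 1 shared control alignment. All cell types of the embryo were mixed, so a peak does not tell which cells it came from, and the protein measured was a tagged transgene product. No read counts were used here, so the depth is unknown, and the number of peaks alone sets the intervals, which cover counting error only.

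Introns of Drosophila developmental genes are known to hold enhancers, short sequences at which transcription factors bind and from which they act on start sites some distance away. First introns are often long and are known to carry many such elements. Transcription factors can be recovered by ChIP-seq at sequences they contact directly and at sequences where another protein holds them.

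The 8 deep intronic summits of highest signal whose sequence can be shown here are given as windows that reach 50 bp to each side of the summit, 5′ to 3′ on the + strand of the Release 6 assembly (dm6, from RefSeq). Capitals mark every occurrence, on either strand, of the 17 sequences of 6 bases that were found more often at deep intronic summits than in their flanks. They show how such sequences lie at the strongest summits.
Tlk (chrX:3742176-3742276): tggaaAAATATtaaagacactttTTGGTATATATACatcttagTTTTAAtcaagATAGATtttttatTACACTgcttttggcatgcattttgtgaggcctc
CG32486 (chr3L:3060756-3060856): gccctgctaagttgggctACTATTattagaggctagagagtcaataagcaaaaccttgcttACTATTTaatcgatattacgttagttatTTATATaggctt
Raf (chrX:2297681-2297781): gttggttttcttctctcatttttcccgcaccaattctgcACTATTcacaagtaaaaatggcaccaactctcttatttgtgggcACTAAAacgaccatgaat
Gug (chr3L:8458261-8458361): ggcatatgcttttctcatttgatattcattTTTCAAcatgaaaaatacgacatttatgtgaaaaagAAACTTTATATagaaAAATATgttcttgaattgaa
Raf (chrX:2300652-2300752): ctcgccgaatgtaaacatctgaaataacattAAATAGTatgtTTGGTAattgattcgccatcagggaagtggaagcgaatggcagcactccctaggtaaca
Pak3 (chr3R:16449335-16449435): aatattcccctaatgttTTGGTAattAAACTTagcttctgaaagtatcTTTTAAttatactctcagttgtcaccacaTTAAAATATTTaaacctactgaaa
lncRNA:CR45668 (chrX:5896120-5896220): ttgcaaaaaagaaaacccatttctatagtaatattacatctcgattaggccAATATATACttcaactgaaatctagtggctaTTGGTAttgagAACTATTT
Hr4 (chrX:1947705-1947805): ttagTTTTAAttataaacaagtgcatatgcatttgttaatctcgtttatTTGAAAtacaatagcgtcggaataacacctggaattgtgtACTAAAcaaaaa

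The capitals covered 37 bases at the Tlk summit, 29 at Pak3 and 23 each at Gug and lncRNA:CR45668. They covered 12 and 13 bases at the Raf summits, the fewest of the 8 windows. GC content ranged from 23.8% at Gug to 41.6% at the Raf summit at chrX:2300652-2300752. The Gug window held CATATG, and so did the Hr4 window.

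A window that holds CTATTTA, the core of the sites known for the muscle factor Mef2, is shown because this was the listed motif found more often at the summits than in their flanks. It is again the summit in CG32486, the highest of the 26 with the motif among those whose sequence can be shown, with the motif in capitals.
CG32486 (chr3L:3060756-3060856): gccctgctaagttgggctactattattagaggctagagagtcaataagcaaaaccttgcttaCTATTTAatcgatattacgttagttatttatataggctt

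Deep intronic summits had lower signal than promoter summits. The signal is the authors' own value for each peak, on a scale not given in the sources used here. Its lowest, median and highest values over the 386 summits were 4.30, 73.1 and 478.1, and the quartiles were 60.4 and 98.8. The median was 84.2 at 874 promoter summits (within 500 bp of a start site), 81.2 at 295 near intronic summits (introns beyond 500 and up to 2000 bp) and 72.6 at 267 intergenic summits. Intergenic summits lay outside genes and more than 500 bp from a start site, whereas deep intronic ones had to lie beyond 2000 bp. By construction 50% of all optimal peaks lay above their common median of 78.6. Of the deep intronic summits 160 did (41.5%, interval 36.5% to 46.5%), against 490 of the promoter summits (56.1%). This difference of -14.6 percentage points passed a two-sided Fisher's exact test (adjusted p = 1.62e-05, Benjamini-Hochberg over 9 tests). Near intronic summits lay above the median in 155 cases (52.5%), a difference of -11.1 points (adjusted p = 0.0125, exact test). That call was lost with either replicate's own set (exact test, adjusted p = 0.107 without replicate 1 and 0.214 without replicate 2). Intergenic summits did so in 120 cases (44.9%), and the difference of -3.49 points missed the threshold (exact test, adjusted p = 0.486). Peaks and not embryos were the units of these tests, so the p-values measure the spread among peaks of 1 set.

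**Figure D1:**
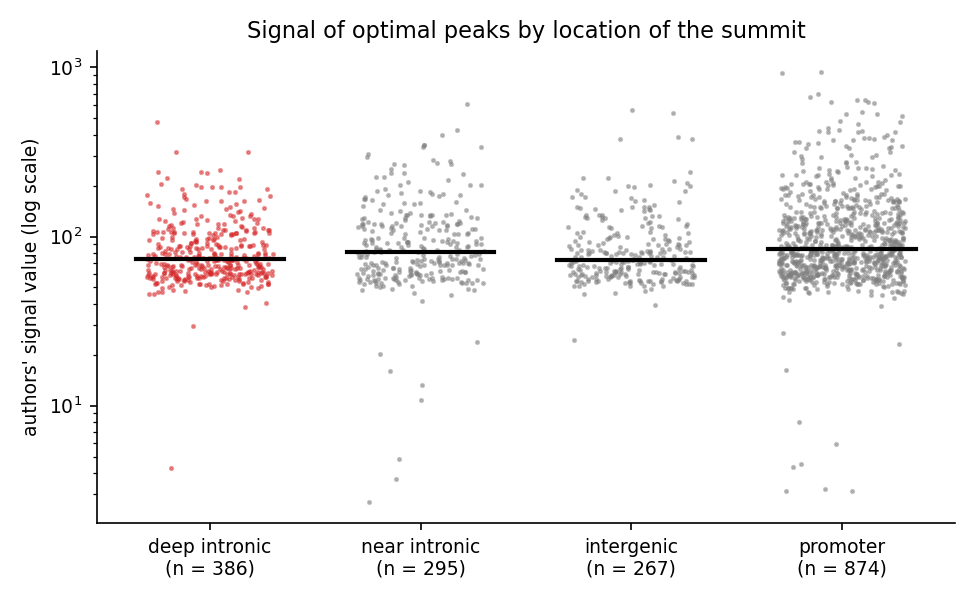
Signal value of each optimal peak on a log scale, by the location of its summit, with a point per peak and a line at the median. The deep intronic median of 73.1 lies below the promoter median of 84.2, and the clouds of points overlap over most of their range.

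Few of the highest peaks were deep intronic, with 7 among the 100 optimal peaks of highest signal, against 20.4% of all optimal peaks. The peak width was 264 bp at 372 of the 386 summits. The lowest signal, 4.30, belonged to a summit in pigs on X at 6621885, whose peak overlapped another member with its summit at 6621684 and a signal of 46.7. No other pair of members overlapped. On either side of the 2000 bp limit, the nearest summits inside were in lncRNA:CR44320 on 3R (2006 bp, signal 108.6) and in lab, a Hox gene on the same arm (2013 bp, signal 65.3). The nearest outside were in oys on 2R (1995 bp, signal 71.3) and in fru, a gene of sexual behaviour, on 3R (1985 bp, signal 60.8).

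The summit of highest signal lay in the first intron of Tlk, which encodes the Tousled-like protein kinase (FBgn0283657, X 3720007 to 3789770). Its summit at 3742226 lay 2329 bp from the nearest start site. The signal was 279.9 in replicate 1, 201.2 in replicate 2 and 478.1 in the optimal set. The second, at 317.3, lay on 2R at 10220074 in an intron shared by CG46321, CG12912 and Hr3, the last a nuclear receptor of the ecdysone response, with 159.2 in replicate 1 and 153.5 in replicate 2. The third lay in CG32486 on 3L at 3060806, with 208.4 and 111.1 in the replicates and 314.6 in the optimal set. The fall from the first to the second was larger than any later step among the 20 highest, which ended at 177.4 in CG13894.

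Raf, the kinase that starts the MAP kinase cascade below receptor tyrosine kinases, held a pair of the 20 highest on X. The summit at 2297731 had 125.9 in replicate 1, 115.3 in replicate 2 and 241.9 in the optimal set. The summit at 2300702 had 112.6, 122.4 and 237.4 in the same order. The secreted inhibitor of the EGF receptor encoded by aos held a summit on 3L at 16480594 with 109.7, 88.3 and 195.6. The ETS repressor aop (Yan), which MAP kinase signalling is known to inactivate, held one on 2L at 2163672 with 91.6, 102.3 and 191.5. The ETS activator pnt, which acts opposite to aop, held one of 89.3 on 3R at 23326486, with 60.1 in replicate 1 and no place in the list of replicate 2.

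Gug, the Atrophin corepressor, held a summit of 240.5 on 3L at 8458311, with 132.3 in replicate 1 and 107.1 in replicate 2. Hr4, a nuclear receptor of the ecdysone response, held one of 203.7 on X at 1947755, with 92.8 and 115.3. The Polycomb group gene Psc held one of 191.8 on 2R at 12975577, with 107.5 and 82.4. In sbb (scribbler), a transcriptional regulator of development, the summits at 18338503 and 18335266 had 195.8 and 182.9. The other coding hosts of known role were Pak3, a p21-activated kinase (223.2, on 3R at 16449385), and rdx, a Cullin-3 adaptor of the Hedgehog pathway (201.9, on 3R at 14012715). The remaining hosts among the 20 were CG12769, lncRNA:CR45668, CG34417, CG32264 and babos, at 248.1, 219.0, 197.1, 196.5 and 184.1. All 20 lay in the own set of both replicates and in the conservative set, and 16 lay in a first intron. Over all 386 summits the shares were 28.8% in both own sets, 75.9% in the conservative set and 60.4% in a first intron.

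The 386 summits were spread over 278 host genes. A single summit was found in 204 of them, 2 in 55, 3 in 12, and 4 or more in 7 genes. Protein-coding genes hosted 376 summits, and 19 summits lay in more than 1 gene. Another member lay within 5000 bp of 91 summits and within 1000 bp of 28, so members of 1 gene are not independent of each other.

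The most summits in 1 gene were the 7 of sbb, on 2R between 18333422 and 18354199. Their signals along the chromosome were 106.8, 182.9, 153.1, 195.8, 85.1, 70.2 and 67.1. The 5 of higher signal lay in the own sets of both replicates and the other two in neither. Raf held 6, with signals of 241.9, 75.8, 237.4, 76.1, 78.6 and 57.1 along the gene, so that the high pair stood well above the rest. None of the 6 lay in a first intron of Raf. Relative to eligible sequence these came to 150 summits per Mb in sbb and 245 in Raf.

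In kirre, an immunoglobulin superfamily adhesion gene of myoblast fusion that spans 394149 bp, 6 summits had signals between 52.1 and 133.2. The highest, on X at 3097221, had 68.2 in replicate 1 and 68.8 in replicate 2, and it was the 1 of the 6 in both own sets. Hr4 held 5 summits, of which 3 were high, at 203.7, 166.3 and 172.1, and 2 were low, at 49.9 and 46.0. Its lowest had 11.2 in replicate 1 and 36.9 in replicate 2. The homeodomain gene hth held 4 between 57.5 and 68.9, and 1 of them, at 47673 bp on 3R at 10560806, was the farthest of all members from a start site. None of the hth summits lay in both own sets. The Hippo pathway gene kibra held 4 between 50.3 and 89.6, and Tet, a DNA and RNA dioxygenase gene, 4 between 47.5 and 62.2.

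Among the genes with 3 summits, babos had the shortest eligible sequence (5301 bp) and signals of 119.3, 103.1 and 184.1. The Notch coactivator mam had 80.0, 164.8 and 124.2, and the latter pair, 592 bp apart, lay in both own sets. The kinase gene msn had 54.8, 88.4 and 137.3. The integrin alpha gene mew had 109.0, 53.4 and 89.3, and the GATA cofactor ush had 77.1, 94.8 and 84.1. Summits in the zinc finger genes jing and chn ranged from 54.6 to 86.8 and from 67.8 to 78.7. Those in the ecdysone-induced nuclear receptor gene Eip75B ranged from 48.1 to 61.8, and none of its 3 lay in an own set. The remaining genes with 3 were CG43658 (64.6 to 81.0), CG42238 (52.3 to 73.2), bun, a leucine zipper gene (51.8 to 57.3), and pigs (4.30 to 49.8).

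Deep intronic summits were sparser than the space open to them. Bases that met the rule, called eligible here, made up 41400651 of the 133880608 bases of the 6 arms, or 30.9%, and held 20.4% of the peaks, a ratio of 0.660 (0.602 to 0.721). The median distance of a summit from a start site was 5088 bp, with quartiles of 3401 and 8864 bp. Over eligible bases the median was 8001 bp and the quartiles 4194 and 16832 bp. Of the members 197 lay more than 5000 bp away (interval 45.9% to 56.1%), and 68.3% of eligible bases lay that far. Beyond 20000 bp were 21 summits (5.44%, interval 3.40% to 8.20%) and 20.9% of eligible bases.

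The density of summits was lower in each class farther out from 3000 bp on. It was 13.9 per Mb of eligible bases (interval 11.1 to 17.0) at 2000 to 3000 bp and 14.8 (12.5 to 17.2) at 3000 to 5000 bp, with intervals that overlap. It was 10.4 (8.81 to 12.1) at 5000 to 10000 bp, 7.12 (5.55 to 8.94) at 10000 to 20000 bp and 4.29 (2.68 to 6.46) at 20000 to 50000 bp. No summit lay farther than 50000 bp, where 9.05% of the eligible bases are found. The signal of the summits stayed within a narrow band across these distances, with medians of 76.5, 73.2, 70.2, 67.6 and 71.5 in the same order.

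First introns held more of the summits than their share of eligible sequence. A first intron of a transcript held 233 of the 386 (60.4%, interval 55.3% to 65.3%), and 37.6% of eligible bases lay in one. Within each distance class, too, first introns had the higher density. At 2000 to 3000 bp the density was 19.3 per Mb in first introns and 7.39 in other introns, and at 3000 to 5000 bp it was 19.1 and 10.6. It was 14.0 and 7.72 at 5000 to 10000 bp, 10.5 and 5.51 at 10000 to 20000 bp, and 8.55 and 3.12 at 20000 to 50000 bp. The last pair rests on 21 summits. No test was made of these shares.

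**Figure D2:**
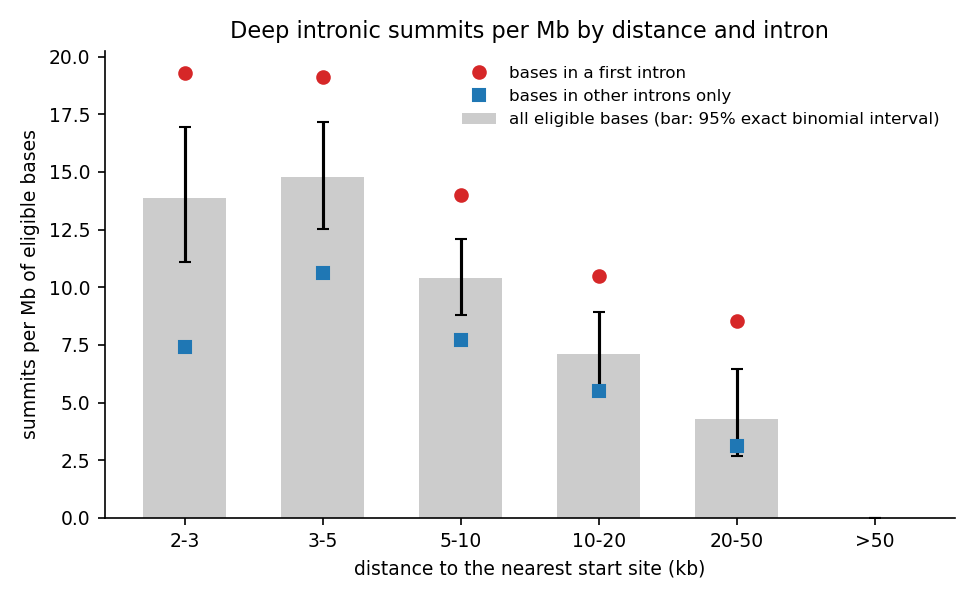
Deep intronic summits per Mb of eligible bases by distance from the nearest start site, with grey bars for all eligible bases, error bars for the exact binomial 95% interval, circles for first introns and squares for other introns. The circles lie above the squares in each of the 5 classes that hold summits, from 19.3 against 7.39 to 8.55 against 3.12.

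The smallest intron around a summit had a median length of 14631 bp, with quartiles of 7703 and 27626 bp. Over eligible bases the median was 16191 bp and the quartiles were 6585 and 36241 bp, and 65.5% against 65.3% lay in an intron of over 10000 bp. The distance to an exon had a median of 2751 bp and quartiles of 1531 and 4809 bp, against 2896, 1048 and 6585 bp, so that the summits spanned a narrower range than eligible bases. The summit lay downstream of its nearest start site in 253 cases (65.5%, interval 60.6% to 70.3%), against 66.0% of eligible bases. The nearest start site belonged to the host gene for 263 summits and to another gene for 123, so the gene that holds a summit was often not the one with the nearest start.

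Density per arm ranged from 7.57 per Mb on 3R (85 summits) to 11.6 on X (93 summits). It was 11.2 on 2L (73 summits), 9.15 on 3L (74) and 8.55 on 2R (61). The median signal was highest on X, at 78.4, closely followed by 2R, at 78.1, and lowest on 3L, at 66.1. Chromosome 4, which holds dati itself and 445338 eligible bases, had no deep intronic summit. The share of an arm's optimal peaks that were deep intronic was 26.7% on X and lay between 18.0% and 20.6% on the large autosomal arms.

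The replicates called deep intronic summits less often on their own than promoter summits. Each replicate has its own thresholded set, and a summit was counted where its peak overlapped one by at least 1 bp. Replicate 1's set held 205 of the 386 and replicate 2's set 145. Both held 111, replicate 1 alone 94, replicate 2 alone 34 and neither 147. The 111 in both (28.8%, interval 24.3% to 33.6%) compare with 35.9% of all optimal peaks and 352 of the 874 promoter summits (40.3%), and the latter difference passed Fisher's exact test (adjusted p = 3.80e-04). Near intronic summits were in both sets in 114 of 295 cases (38.6%, exact test, adjusted p = 0.0153), and intergenic ones in 85 of 267 (31.8%, adjusted p = 0.489). Among peaks above the median signal of the optimal set the difference from promoter summits was -3.11 points (adjusted p = 1.00, exact test) and that from near intronic summits was -3.47 points (adjusted p = 1.00). Median signal was 119.7 for the 111 summits in both sets and 59.8 for the 147 in neither, and signal was not held equal in the first comparison. The conservative set held 293 of the 386 (75.9%), against 83.5% of the promoter summits.

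Every replicate also has a longer ranked list without a threshold, in which 378 of the 386 summits had a place in both. The median signal was 39.6 in replicate 1 and 35.3 in replicate 2, and the ratio of the second to the first had a median of 0.884, with 5th and 95th percentiles of 0.455 and 1.76. The ratio had a median of 0.887 at promoter summits. Across the 378 summits Pearson's r was 0.776 and Spearman's coefficient 0.458, and across 852 promoter summits they were 0.916 and 0.635. The SD of the log2 ratio was alike, 0.597 at deep intronic and 0.613 at promoter summits. Quartiles of signal in the optimal set were closer together at deep intronic summits (60.4 and 98.8) than at promoter summits (65.2 and 126.6). The part of this narrower range in the lower coefficients was not tested. These are descriptions across peaks of the same 2 libraries, which share a control. Deep intronic summits were above the median ratio in 49.5% of cases, and the tests against promoter (48.6%, adjusted p = 0.805), near intronic (45.7%, 0.486) and intergenic summits (55.5%, 0.267) missed the threshold by Fisher's exact test.

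**Figure D3:**
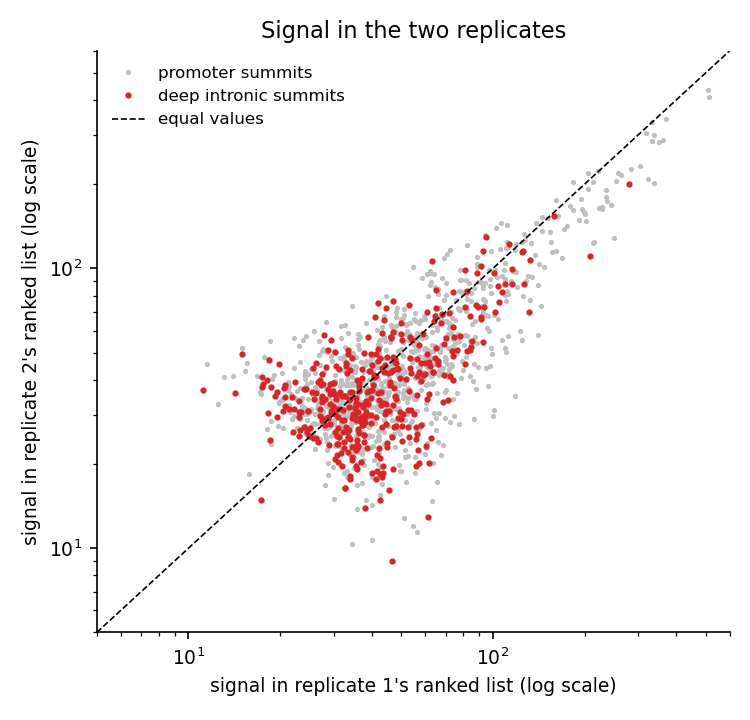
Signal of each summit in the ranked list of replicate 1 (horizontal) and replicate 2 (vertical), both on log scales, with deep intronic summits in red, promoter summits in grey and a dashed line of equal values. The Tlk summit, at 279.9 and 201.2, is the red point of highest signal, and the red points below about 60 on either axis spread widely.

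Among the 100 members of highest signal, 5 stood out by the difference in their rank share between replicates, the share of all places in a list that rank above them. In replicate 1 they were higher in grh, the gene of the epidermal factor Grainyhead (68.5 against 33.3 in replicate 2), and in Grip (71.0 against 34.0). In replicate 2 they were higher in spir, an actin nucleator gene (75.2 against 42.0 in replicate 1), in CG1677 (67.3 against 41.0) and in dpp, the gene of a BMP ligand (72.3 against 44.7). Their signals in the optimal set lay close together, from 105.0 in Grip to 118.9 in CG1677.

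Below the threshold, eligible sequence held many weaker places. The pooled ranked list held 45081 deep intronic places of 154044 on the 6 arms (29.3%), close to the 30.9% of bases that are eligible. Of all 154044 places 1.23% were in the optimal set. The share was 0.856% for deep intronic places, 3.82% for promoter places, 2.21% for near intronic places and 0.733% for intergenic places. Among the first 10000 places 2324 were deep intronic (23.2%).

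Summits were poorer in GC than their surroundings. Windows that reach 50 bp to each side of the summits held 36.0% ± 8.94 GC (SD, n = 386), and the mean of the windows 500 bp to either side was 40.9% ± 6.84. GC was lower at the summit in 262 cases, higher in 119 and equal in 5, a mean difference of -4.96 ± 11.5 points (exact sign test, two-sided, p = 1.81e-13). Eligible sequence cut into 409578 windows of that size held 40.2% GC. The profile had a rim: mean GC was 44.6% at 200 bp before the summit and 45.04% at 200 bp after it, and 40.3% and 40.6% at 1000 bp. Promoter summits reached nearly the same value at the summit, 35.9%, and rose to 42.5% and 42.1% at 200 bp and to 44.7% and 44.3% at 500 bp. The part of base composition in sequencing or peak calling was not tested.

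**Figure D4:**
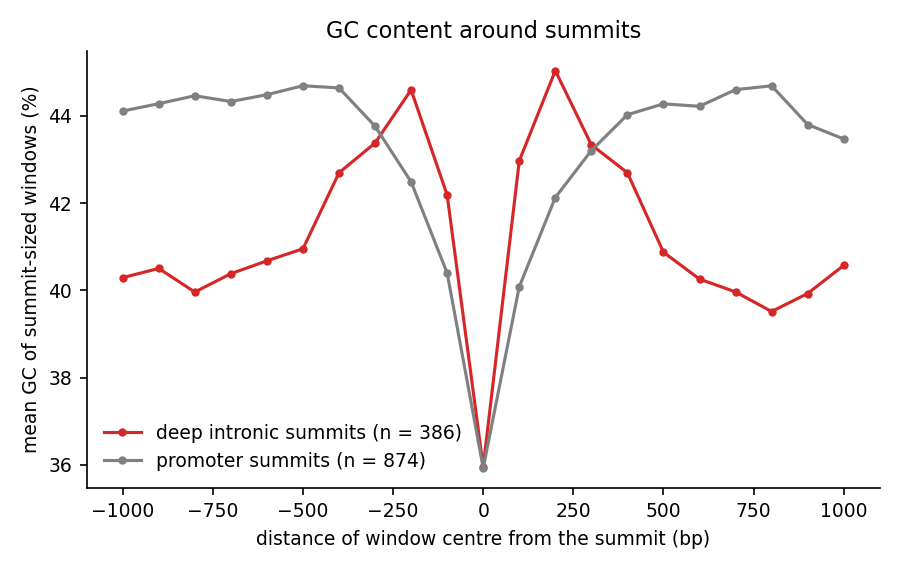
Mean GC content (%) of such windows by distance from the summit (bp), in red for 386 deep intronic and in grey for 874 promoter summits. The red line falls from 44.6% at 200 bp to 36.0% at the summit and returns to about 40% by 1000 bp, and the grey line stays above 43% beyond 500 bp.

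Short sequences rich in A and T were more frequent at the summits than in their flanks. All 2080 sequences of 6 bases, each merged with its reverse complement, were compared by two-sided Fisher's exact tests between the summit windows and both flanks. Of these, 17 were higher at the summits (0.817% of those tested) and 2 were lower (0.0962%) at an adjusted p under 0.05. Of the 17, 5 held A and T only, 9 held a single G or C, and 3 held a pair of them. ATTTTA was in 28.0% of summit windows, 14.9% of flanks and 17.3% of eligible windows (exact test, adjusted p = 4.68e-04). TTAAAA was in 25.1%, 14.1% and 18.2%, in the same order (exact test, adjusted p = 0.00382), and AAATAT in 28.5%, 16.8% and 19.3% (adjusted p = 0.00382). Those lower at the summits were CTCCTC (0.518% against 4.27% of flanks, exact test, adjusted p = 0.0246) and CCCCCG (0.518% against 4.02%, adjusted p = 0.0310). The windows differ in GC, and its part in these calls was not tested. The number of calls rested on the set: it was 2 without replicate 1 (147 summits), 24 without replicate 2 (217 summits) and 6 among peaks above the median signal (160 summits).

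A group of the 17 shared the 4 letters ATAG, or CTAT on the other strand. They were 6 of the 17, and 48 of all 2080 sequences hold those letters (2.31%). ATAGAT was in 12.4% of summit windows and 4.66% of flanks (exact test, adjusted p = 0.00363), and in 5.40% of eligible windows. ACCTAT had the highest ratio of the 17, with 5.18% against 1.30% (exact test, adjusted p = 0.0310). AAATAG, which lies within CTATTTA on the other strand, was in 18.9% against 9.59% (exact test, adjusted p = 0.00482). AACTAT was in 12.7% against 5.83% (exact test, adjusted p = 0.0173). AATAGT was in 11.1% against 4.79% (exact test, adjusted p = 0.0194). AATAGA was in 12.7% against 6.09% (exact test, adjusted p = 0.0310). The letters ATAG or CTAT were in 62.4% of deep intronic windows, 39.1% of their flanks and 42.0% of eligible windows. At promoter summits they were in 50%, and in 37.9% of the flanks there. This core was chosen after the values were seen and has no test of its own.

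At promoter summits the same comparison was run as an alternative chosen after seeing the data. ATTTTA was in 27.8% of promoter windows and 12.1% of their flanks, close to the deep intronic shares. ATAGAT was in 5.84% and 4.46% there (adjusted p = 0.259), and AAATAG in 10.5% and 7.38% (adjusted p = 0.0334), by exact tests. Of the other ATAG sequences, AACTAT (9.73% and 5.78%, exact test, adjusted p = 0.00280) and AATAGT (7.78% and 4.41%, adjusted p = 0.00467) were also higher at promoter summits. ACCTAT (3.09% and 2.00%, exact test, adjusted p = 0.223) and AATAGA (6.64% and 5.66%, adjusted p = 0.506) missed the threshold there. The difference between the 2 kinds of summit was not tested for single sequences of 6 bases. At least 1 of the 17 was present in 87.6% of deep intronic windows, 62.0% of flanks and 69.5% of eligible windows. Members above their own median signal of 73.1 held 3.05 of them on average and the other members 2.39, a description of sequences that these same windows chose.

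Few known motifs stood apart. Of 24 listed motifs, searched on both strands, 1 was higher at the summits than in the flanks (4.17% of those tested) and 1 was lower (4.17%). CTATTTA was in 26 summit windows (6.74%), 2.72% of flanks and 2.08% of eligible windows (Fisher's exact test, adjusted p = 0.0490). The run AAAAAAAA was in 21 windows (5.44%), 10.5% of flanks and 6.96% of eligible windows (exact test, adjusted p = 0.0490). Both calls were lost with the conservative set, without replicate 1, without replicate 2, among peaks above the median signal and with windows that reach 25 or 100 bp to each side. Without replicate 2 the called motifs were GAGAG and CACACACA, both lower at the summits. The GAGA factor's element GAGAG was in 12.4% of summits, 16.6% of flanks and 11.4% of eligible windows (exact test, adjusted p = 0.408). CANNTG, the E-box of bHLH proteins, was in 41.5% and 39.0% (exact test, adjusted p = 0.720). CAGGTAG, the element of the early activator Zelda, was in 5 of the 386 windows.

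Against promoter summits, 4 of the 24 motifs differed (16.7%). Those lower at deep intronic summits are known from core promoters: TATCGATA, the element bound by Dref, was in 0 of 386 windows (upper limit 0.951%, exact binomial) and 21 of 874 promoter windows (2.40%, adjusted p = 0.0132, Fisher's exact test). GGTCACAC, the core motif bound by M1BP, was in 0 and in 15 (1.72%, exact test, adjusted p = 0.0490), and CATCNCTA in 1 and in 21 (2.40%, adjusted p = 0.0490). In eligible windows these motifs were in 0.214%, 0.149% and 0.564%. The CA repeat CACACACA was higher, in 11 windows (2.85%) against 7 (0.801%, exact test, adjusted p = 0.0490), and in 2.61% of eligible windows. No motif passed in this comparison with either replicate's own set alone or among peaks above the median signal.

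Of 4216 protein-coding genes with eligible bases, 270 hosted a deep intronic summit (6.4%), at 8.98 summits per Mb (Poisson 95% interval 8.09 to 9.93). The lists below were drawn with earlier results of these data known, and their counts are descriptions with no test. Listed genes have more eligible sequence than most, so density per Mb is given beside each count. The median was 32391 bp for the listed transcription factors against 1638 bp over all genes. Density also varied with size. Over all protein-coding genes it was 10.99 per Mb below 5000 eligible bp, 15.33 from 5000 bp and 13.50 from 10000 bp. It was 10.03 from 20000 bp and 5.17 from 50000 bp up, so 8.98 is not matched for size. Developmental signalling genes had a median of 7470.5 bp, and their interval, 13.5 to 43.3, holds the 15.33 of that class. That of transcription factors, 11.2 to 24.0, lies above 10.03. Densities at matched size were not tested.

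Genes of developmental signalling, of cyclic nucleotides and kinases, and of transcription factors had the highest densities of the 7 lists. Of 42 listed transcription factor genes with eligible bases, 19 hosted 29 summits (45.2% of the genes), or 16.7 per Mb (11.2 to 24.0). After aop the highest was the EGR-type zinc finger gene sr, which specifies tendon cells, at 155.5 on 3R at 18125212, with 73.8 in replicate 1 and 82.4 in replicate 2. The next were grh at 105.3 and pnt at 89.3. Among developmental signalling genes 10 of 34 hosted 13 summits (29.4%), or 25.3 per Mb (13.5 to 43.3). After aos came mam at 164.8 (89.3 and 72.8 in the replicates), the Wnt and polarity receptor gene fz at 158.3 (93.8 and 73.0) and the Hippo pathway gene ex at 125.9 (64.0 and 64.8). Cyclic nucleotide and kinase genes hosted 11 summits in 8 of 29 (27.6%), or 16.9 per Mb (8.42 to 30.2). The list leaves out other kinase genes, Raf and Pak3 among them, and within it the highest after Tlk were msn at 137.3, the cAMP phosphodiesterase gene dnc at 91.7 and the kinase gene hppy at 88.0.

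Axon guidance and neural adhesion genes lay near the value of all genes, with 15 summits in 9 of 34 (26.5%), or 9.31 per Mb (5.21 to 15.4). After kirre they were led by the adhesion gene Fas3 at 126.2 (80.8 and 45.5), sli, the Robo ligand, at 90.1, and the semaphorin gene Sema1a at 72.9. RNA binding genes had 9 summits in 7 of 21 (33.3%), or 6.33 per Mb (2.90 to 12.0), led by shep at 161.9 (91.2 and 65.7), the splicing factor gene Rbfox1 at 123.4, how at 77.0 and fne, an ELAV family gene, at 64.8 (17.4 and 40.9). Cytoskeleton, polarity and muscle genes had 3 summits in 2 of 26 (7.69%), the polarity gene scrib at 106.1 and trio at 73.2, or 6.40 per Mb (1.32 to 18.7). This list leaves out other host genes of its kind, such as spir at 117.7 and Dys, with 2 summits up to 132.8. Its low count holds for the listed genes only.

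Ion channel and synapse genes had the lowest density of the 7 lists. Of 31 with eligible bases, 1 hosted a summit (3.23%), or 0.994 per Mb (0.0252 to 5.54), although their median of 32182 eligible bp was close to that of the transcription factors. The summit lay in the acetylcholine receptor gene nAChRalpha6 on 2L at 9882851, with 24.5 in replicate 1, 26.1 in replicate 2 and 53.5 in the optimal set, and it was in no own set. The list leaves out other channel genes that hosted summits. Among them Ih held 2, at 86.8 and 52.4, and Ca-beta held 1, at 62.7, so the low density holds for the listed genes only. Among genes with at least 20000 eligible bases, 139 of all 572 hosted a summit (24.3%, interval 20.8% to 28.0%). Among listed genes of that size, 5 of 8 developmental signalling genes did (62.5%, interval 24.5% to 91.5%) and 18 of 31 transcription factor genes (58.1%, 39.1% to 75.5%). The shares were 5 of 10 for cyclic nucleotide and kinase genes (50%, 18.7% to 81.3%), 6 of 15 for RNA binding genes (40%, 16.3% to 67.7%) and 8 of 24 for axon guidance and neural adhesion genes (33.3%, 15.6% to 55.3%). They were lowest for cytoskeleton, polarity and muscle genes, 1 of 10 (10%, 0.253% to 44.5%), and for ion channel and synapse genes, 1 of 19 (5.26%, 0.133% to 26.0%). Both lists leave out host genes of their kind, so these shares hold for the listed genes only.

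Over the 7 lists together, 56 listed genes hosted a summit, a share 4.05 times that of all protein-coding genes with eligible bases, but listed genes are larger. Within classes of eligible sequence the shares lay closer. From 10000 to 20000 bp 15.4% of 39 listed genes hosted a summit, against 14.8% of all genes of that size. From 20000 to 50000 bp it was 33.8% of 74 against 21.4%, and from 50000 bp up 44.2% of 43 against 31.7%. From 5000 to 10000 bp it was 5 of 20 (25%) against 9.44%, and below 5000 bp 1 of 40 (2.5%) against 1.10%.

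**Figure D5:**
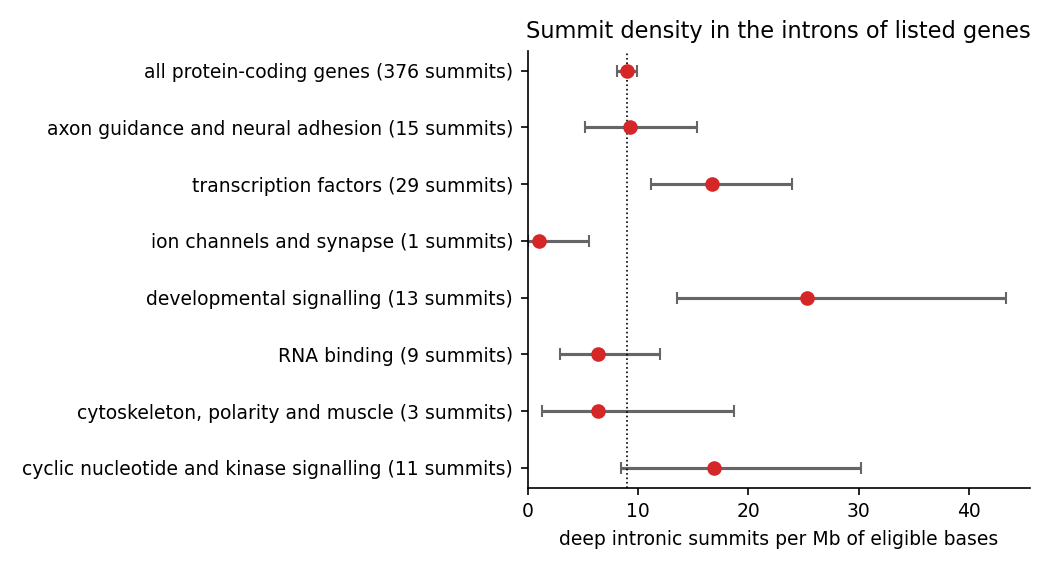
Deep intronic summits per Mb of eligible bases in the introns of each gene list, with points for the density, bars for the Poisson 95% interval and a dotted line at the value of all protein-coding genes (8.98). Developmental signalling (25.3) and transcription factors (16.7) lie to the right of the line with their whole interval, and ion channels and synapse (0.994) lie to its left with theirs. This is a description and not a test. The intervals treat summits of 1 gene as independent, which they are not, and the line is not matched for gene size.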

How the data were processed

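ChIP-seq with an antibody against GFP was analysed in 2 biological replicates of dati-eGFP embryos, as labelled. Peak lists on build dm6 were deposited by the authors, with aligner and caller not given in the sources used here. The signal of each peak is the authors' deposited value, with the control as background, on an unstated scale, and was used only to rank or describe peaks within a list or side by side. The summit is a deposited offset from the peak start. Ages were read from the source name, since the age field holds an impossible value. The lists hold no read counts, so depth is unknown.

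Summits were assigned with Ensembl release 115 genes (transposable elements left out) and sequence of the matching Release 6 assembly. Coordinates start at 1. Peaks outside the 6 arms were left out (1892 of 1915 kept). Shares have exact Clopper-Pearson 95% intervals and list densities Poisson 95% intervals. Two-sided Fisher's exact tests served for class, motif and 6-mer shares, and GC was tested with an exact sign test (scipy 1.17.1, numpy 2.4.6, pandas 2.3.3, Python 3.11.15), with Benjamini-Hochberg adjustment per family and a threshold of 0.05. Of the tests, only that of 6-mers was run on simulated windows, with a planted sequence. Simulated summits and flanks had the same base composition, unlike the real ones, so the runs do not cover a difference in GC. Nearby windows, and 6-mers that overlap, are not independent.

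Named genes were hosts of the 20 highest summits, hosts of 3 or more, the 5 largest differences in rank share among the 100 highest, and up to 4 hosts per list; the genes beside the 2000 bp limit and the most AT-rich and ATAG sequences were named after their values were seen. Members, motifs and lists were chosen with earlier results of these data known. Of the listed names, 2 were not matched and are not used here. Alternatives were the conservative set, each replicate's own set, peaks above the median signal, other distances, windows, flanks and overlap rules, and the host taken by nearest start site.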

Additional observations from a re-analysis of the deposited data

How the results depend on the processing

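Of 110 alternative values, 64 kept their direction and side of the threshold or, for counts of calls, a like number, 36 moved, 7 lost significance and 3 turned; the causes were not tested. Turned: above-median signal against intergenic summits was 5.65 points with the conservative set and -4.91 to 3.29 with 1 replicate's set, and the high replicate ratio against promoters -1.22 among peaks above the median signal; none passed the test. Lost: signal against near intronic summits (-10.5 points over 1000 bp; -11.0 to -7.33 with 1 replicate's set) and both own sets (above the median signal, -3.11 against promoter and -3.47 against near intronic; against near intronic, -6.86 over 1000 bp and -7.89 with summits within 50 bp). The share of peaks was 17.1% to 18.1% with 1 replicate's set, 16.9% above the median signal, 28.4% over 1000 bp and 10.4% over 5000 bp; the density ratio was 0.553 to 0.584, 0.547, 0.786 and 0.493. The first intron share was 58.5% to 66.8% with 1 replicate's set, 66.5% over 1000 bp and 52.8% over 5000 bp. Hosting by listed genes relative to all, with no allowance for gene size, 4.05 (3.86 to 4.07 with 1 replicate's set), was 5.27 over 1000 bp and 2.13 over 5000 bp. Motif calls against flanks were 0 to 2 with 1 replicate's set (the 2 without replicate 2 were other motifs, GAGAG and CACACACA), 2 with flanks at 1000 bp (GCCAT in place of AAAAAAAA), 1 over 1000 bp, and 0 with the conservative set, above the median signal, over 5000 bp, with windows reaching 25 or 100 bp each side and, added after seeing the data, without members within 1000 bp of another. Motif calls against promoters were 1 with the conservative set and 0 with either replicate's set, above the median signal, over 5000 bp and with the 25 bp reach. Calls of 6-mers were 2 to 24 with 1 replicate's set, 6 above the median signal, 117 over 1000 bp, 6 over 5000 bp, 2 with the 25 bp and 60 with the 100 bp reach, and, added after seeing the data, 503 at promoter summits. The GC difference kept its sign and call in every alternative run. Leaving out a replicate uses the other's own set, so values needing both were not run there. No paired analysis was possible because there was 1 group. Depth is unknown, so absence of a summit is absence of a called peak only.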
